A study of Mus musculus with 7 samples.

Results

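NKX2-1 is a homeodomain transcription factor that is needed for the development of both the lung and the thyroid. In the lung it drives the surfactant genes of the alveolar epithelium, and in the thyroid it acts with PAX8 on the genes of hormone synthesis. The 7 genes described here are known best from lung epithelium. Sftpb, Sftpc and Sftpd encode surfactant proteins B, C and D, Napsa encodes napsin A, an aspartic protease that helps to process surfactant protein precursors, and Slc34a2 encodes the sodium-dependent phosphate transporter of alveolar type II cells. Ager encodes RAGE, a receptor that is abundant on alveolar type I cells, and Sfta3-ps is a noncoding transcript next to Nkx2-1. The genes were chosen on earlier results of these same cells, from their levels in organoids against tissue, by tissue cell type and against Nkx2-1. Those values are therefore given as a description with no test, and all 7 genes were found among the 30879 rows of the table.

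The tissue cells came from 2 samples of primary thyroid from C57BL/6 mice (wild type), and the cultured cells from 3 late passage and 2 early passage samples of mouse thyroid follicular cell organoids (TFCOs). TFCOs are grown from thyroid follicular cells (TFCs), which make the thyroid hormones, and were kept in basement membrane extract with R-spondin 3, the TGF-beta receptor inhibitor A83-01, forskolin, EGF and FGF10. No other treatment was given, the ages of the mice and the number of animals behind a sample were not given in the sources used here, and p-values measure the spread between these samples. All values rest on cells with at least 1000 unique molecular identifiers (UMIs), which were 305 and 273 tissue cells, 307, 360 and 242 late TFCO cells, and 235 and 313 early TFCO cells. A level is the mean over cells of UMIs per 10000 UMIs of the cell, and it is compared between samples, not between genes.

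Tissue cells were grouped by clustering without the 7 genes and without Nkx2-1. This gave 109 TFC-like, 213 endothelial-like, 58 immune-like, 56 mural-like and 21 stromal-like cells, 108 cells of an unnamed cluster led by hemoglobin genes, and 13 cells set aside. The TFC-like cells were shallow, with medians of 2245 and 1847 UMIs against 5011 to 12380.5 in the TFCO samples. In tissue sample 2, the 2 deepest TFC-like cells (268847 and 151110 UMIs) held 74.2% of the UMIs of its TFC-like cells. Of 12 TFC markers, 9 had a mean of 0.5 or more in TFCOs, among them Tg, the hormone precursor thyroglobulin, at 68.5 to 154 per 10000 against 1534 and 1019 in TFC-like tissue cells. Markers of C cells, the calcitonin cells of the gland, summed to 3.05 and 3.89 in the TFC-like cells and to 0.0608 to 0.334 in TFCOs. Those of endothelial cells summed to 8.46 and 10.9 in the TFC-like cells against 1.39 to 2.58, and those of immune cells to 5.20 and 9.37 against 0.175 to 0.694. The TFC-like cluster held 122 cells before any were set aside, and a finer clustering split off a group of 55 tissue cells led by Calca. Without that group, TFCO minus tissue differences of the members kept their direction, which was part of how they were chosen. The plates share well barcodes by design (305 of 384 in every sample), and no member with enough cells followed them (correlations of at most 0.0417).

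The annotation (GENCODE, GRCm38) places Sftpb at chr6:72304610-72314371 and Slc34a2 at chr5:53038081-53071664, both on the plus strand. Ager lies at chr17:34597862-34600936 and Napsa at chr7:44572380-44586862, also on the plus strand. Sftpd (chr14:41172214-41185149) and Sftpc (chr14:70520949-70524081) share a chromosome and lie on the minus strand. Sfta3-ps (chr12:56488321-56529427) is a processed transcript on the minus strand that begins 2530 bases past the 3′ end of Nkx2-1 (chr12:56531958-56536908), which is on the same strand. Antisense genes overlap Napsa (Gm15396, 129 UMIs in the table against 20915) and Slc34a2 (Gm17182, 23 against 5073), as does one at Nkx2-1 (Gm26973, 419 against 4537). Ager lies next to Rnf5 on the other strand (2788 UMIs against 5471). The strand setting of the counting is not given in the sources used here.

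RefSeq promoters (GRCm38.p6) were matched for 3 of the 7 genes, and the 250 bases before the annotated start are shown because the members they belong to moved in opposite directions. Capitals mark CAAG, the core letters of the element that NKX2-1 binds, on either strand (CTTG on the other).

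Sftpb, chr6:72304360-72304609, plus strand: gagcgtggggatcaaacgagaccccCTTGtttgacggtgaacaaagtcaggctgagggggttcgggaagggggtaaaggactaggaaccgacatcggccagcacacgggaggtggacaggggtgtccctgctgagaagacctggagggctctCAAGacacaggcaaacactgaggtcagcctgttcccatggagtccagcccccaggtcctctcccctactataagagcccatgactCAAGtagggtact
Slc34a2, chr5:53049103-53049352, plus strand: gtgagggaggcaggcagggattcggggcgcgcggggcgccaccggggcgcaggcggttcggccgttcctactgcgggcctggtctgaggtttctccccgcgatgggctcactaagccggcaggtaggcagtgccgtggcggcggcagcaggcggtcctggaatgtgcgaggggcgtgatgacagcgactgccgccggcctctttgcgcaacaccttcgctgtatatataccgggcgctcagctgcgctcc
Ager, chr17:34597600-34597849, plus strand: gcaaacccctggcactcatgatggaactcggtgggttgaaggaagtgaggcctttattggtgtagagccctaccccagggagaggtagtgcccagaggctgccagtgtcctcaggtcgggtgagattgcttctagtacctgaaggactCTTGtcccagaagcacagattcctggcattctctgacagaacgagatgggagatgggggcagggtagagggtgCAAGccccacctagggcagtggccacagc

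The RefSeq start of Slc34a2 lies inside the GENCODE gene, so its window is not that of the first GENCODE base. The core occurred 3 times before Sftpb, 2 times before Ager and not at all before Slc34a2. It was held by 86.6% of all 32851 promoters of this length, so its presence is common. The longer form CTCAAG (both strands searched, overlapping the core) occurred 2 times before Sftpb and not before the other 2, and 13.3% of all promoters held it. The form CAAGTG, held by 11.6%, occurred before none of the 3. These are matches of letters in a short window, and binding was not measured.

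The surfactant protein genes were at or near 0 in thyroid tissue, and Sftpb was the one with a clear level in TFCOs. Surfactant protein B is a small hydrophobic protein that lets surfactant spread on the alveolar surface. Sftpb was at 0.0810 and 0.393 per 10000 in TFC-like cells of tissue samples 1 and 2, which rests on 4 UMIs in 3 of 109 cells. It was at 3.76, 14.6 and 2.5 in late TFCO samples 1 to 3, and at 12.7 and 1.92 in early samples 1 and 2. All 5 TFCO samples lay above both tissue samples, and late sample 2 and early sample 1 lay far above the other 3. The means were 0.237 ± 0.221 (SD, n = 2) in tissue and 7.10 ± 6.07 (SD, n = 5) over the TFCO samples, a wide spread. The same order held for the share of cells with an Sftpb UMI, with 59.9, 96.1 and 56.6% of the cells of late samples 1 to 3 and 93.2 and 42.2% of those of early samples 1 and 2, against 0 of 213 endothelial-like cells (up to 1.41% allowed). With each cell thinned to 1000 UMIs the shares were 23.8, 58.9, 21.9, 53.6 and 15.7%, and 1.83% in TFC-like tissue cells.

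Sftpd and Sftpc did not reach the level of 0.5 per 10000 needed for the fits of tissue and passage. Surfactant protein D is a lectin of innate defence that is made in several epithelia. Its gene was at 0.0599 and 0.172 in TFC-like tissue cells, at 0.313, 0.220 and 0.313 in the late samples, and at 0.245 and 0.292 in the early samples. All 5 TFCO samples lay above both tissue samples, and 10.4 to 17.5% of their cells held a UMI against 3 of 109 TFC-like tissue cells. After thinning to 1000 UMIs the share was 0.833 to 3.26% in TFCOs and 0.917% in TFC-like tissue cells. So few cells kept a UMI at that depth that these shares cannot decide whether Sftpd differs.

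Surfactant protein C is made in alveolar type II cells and is the usual marker of that cell type. No Sftpc UMI was found in the 52 and 57 TFC-like tissue cells, so shares of as much as 5.77 and 5.26% remain possible, and 2 of 213 endothelial-like cells held 1 each. In late sample 1 there were 49 Sftpc UMIs in 16 of 307 cells (5.21%, exact 95% interval 3.01 to 8.33), and 1 cell held 22 of them. That cell had 1 Sftpb UMI and 7 Tg UMIs among 6086 UMIs. Late sample 2 had 2 UMIs and early sample 1 had 1, while late sample 3 (0 of 242 cells, up to 1.24%) and early sample 2 (0 of 313, up to 0.958%) had none. In tissue sample 1, 7 Sftpc UMIs were found in 1 set-aside cell that also held 1657 Calca UMIs. Sftpc was thus seen in 1 organoid sample above a few UMIs.

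**Figure D1:**
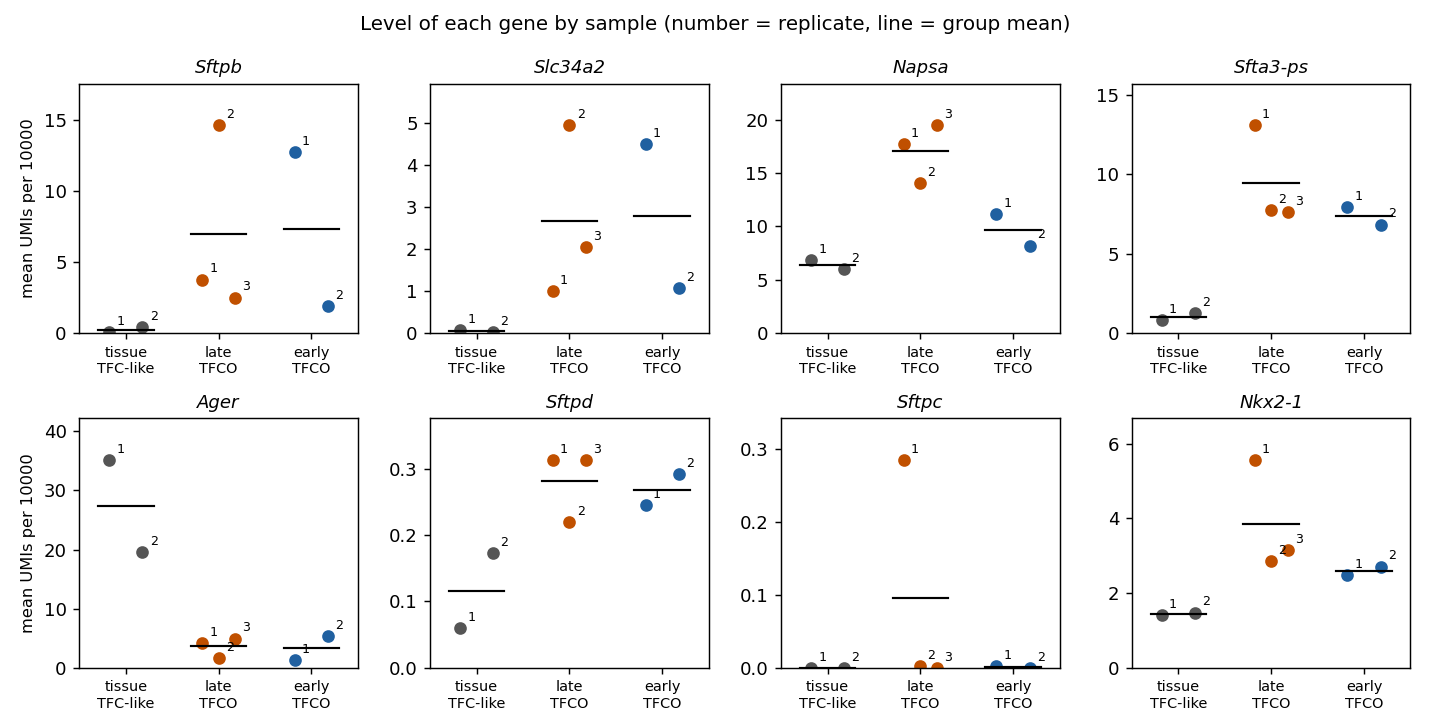
Mean UMIs per 10000 of each gene (vertical axis, linear, own scale per panel) in TFC-like tissue cells and in late and early TFCO cells. Each point is a sample with its replicate number and each line is the mean of its group. Sftpb and Slc34a2 are highest in late sample 2 and early sample 1, and Ager is at 19.6 and 35.1 in tissue and at 5.29 or less in every TFCO sample.

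Napsa was expressed in TFCs of the gland itself and was higher in the organoids. It was at 6.85 and 5.96 per 10000 in TFC-like tissue cells, at 17.7, 14.1 and 19.5 in late samples and at 11.1 and 8.20 in early samples. Every TFCO sample lay above both tissue samples, and the late samples lay above the early ones. Its mean was 6.40 ± 0.624 (SD, n = 2) in tissue. The late samples had a mean of 17.1 ± 2.76 (SD, n = 3) and the early samples one of 9.67 ± 2.08 (SD, n = 2). In tissue, 61.5% of TFC-like cells held a Napsa UMI, as did 39.7% of immune-like cells and 9.39% of endothelial-like cells. Thinned to 1000 UMIs, these shares were 39.4, 8.62 and 3.29%. The level was 1.81 in immune-like and 0.246 in endothelial-like cells.

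Slc34a2 was nearly absent from thyroid tissue and present in all TFCO samples. It was at 0.0694 and 0.0139 per 10000 in TFC-like tissue cells (4 UMIs in 3 cells). Over all 109 TFC-like cells the level was 0.0404, against 0.0663 over endothelial-like cells. It was at 0.999, 4.95 and 2.05 in late samples and at 4.5 and 1.07 in early samples. As for Sftpb, late sample 2 and early sample 1 were highest, with UMIs in 88.3 and 82.1% of cells against 26.7 to 55.0% in the others.

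Ager went the other way, with its highest level in TFCs of the gland. RAGE binds S100 proteins, HMGB1 and advanced glycation end products. Its gene was at 35.1 and 19.6 per 10000 in TFC-like tissue cells, at 4.22, 1.65 and 4.95 in late samples and at 1.27 and 5.29 in early samples. Every TFCO sample lay below both tissue samples, and the samples highest for Sftpb and Slc34a2 were lowest for Ager. The means were 27.4 ± 11 (SD, n = 2) in tissue and 3.48 ± 1.88 (SD, n = 5) over the TFCO samples. In the other named tissue classes Ager was at 0.473 to 1.02. After thinning to 1000 UMIs, 77.1% of TFC-like cells held an Ager UMI against 7.04 to 12.1% in those classes and 8.94 to 38.0% in TFCO samples. The 13 set-aside cells were at 7.82 for Ager, and 38.5% of them held a UMI after thinning. The 2 deepest cells of tissue sample 2 were at 8.49, below the mean of their sample.

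Sfta3-ps followed its neighbour Nkx2-1 in direction. It was at 0.796 and 1.23 per 10000 in TFC-like tissue cells, at 13.1, 7.72 and 7.62 in late samples and at 7.92 and 6.82 in early samples. Nkx2-1 was at 1.40 and 1.48 in tissue, 5.57, 2.86 and 3.15 in late and 2.48 and 2.71 in early samples. Sfta3-ps had a mean of 1.02 ± 0.310 (SD, n = 2) in tissue and of 8.63 ± 2.52 (SD, n = 5) over the TFCO samples. Both genes were highest in late sample 1, and for both every TFCO sample lay above both tissue samples. In tissue the 2 deepest TFC-like cells held 225 of the 284 Sfta3-ps UMIs, at a level of 5.33. The other 55 cells of that sample were at 1.09, and with UMIs summed over cells the TFC-like level was 2.85. The same 2 cells held 150 of the 185 Nkx2-1 UMIs. They held 4066 and 3724 Tg UMIs, but also 31 and 108 of Calca and 32 and 39 of the endothelial marker Pecam1. Whether they are mixed wells was not tested. With UMIs summed over cells, Nkx2-1 was at 2.99 in tissue sample 2, above 4 of the 5 TFCO samples (2.03 to 2.96), so its separation from tissue was lost on that scale. For Sfta3-ps it held, at 4.80 in tissue sample 2 against 7.38 or more in TFCOs.

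On the log2(level + 1) scale of the fit over all 4301 genes that passed the filter, organoids minus tissue came to 2.37 (SE 0.84) for Sftpb, 2.20 (SE 0.34) for Sfta3-ps, 1.68 (SE 0.56) for Slc34a2 and 0.90 (SE 0.35) for Napsa. Ager came to -2.75 (SE 0.57), a 6.73-fold lower level on that scale. Nkx2-1 came to 0.75 (SE 0.30). The added 1 shrinks the differences of low genes, and with 0.1 in its place Sftpb came to 4.12 and Slc34a2 to 4.05. The median over all genes tested was 0.22, and with each sample centred on its median gene the 5 members ran from -2.94 for Ager to 2.18 for Sftpb. The separation of all TFCO samples from both tissue samples is no mark of these genes in particular, since 41.4% of all genes tested lay entirely higher and 10.9% entirely lower, and it was part of how the members were chosen.

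**Figure D2:**
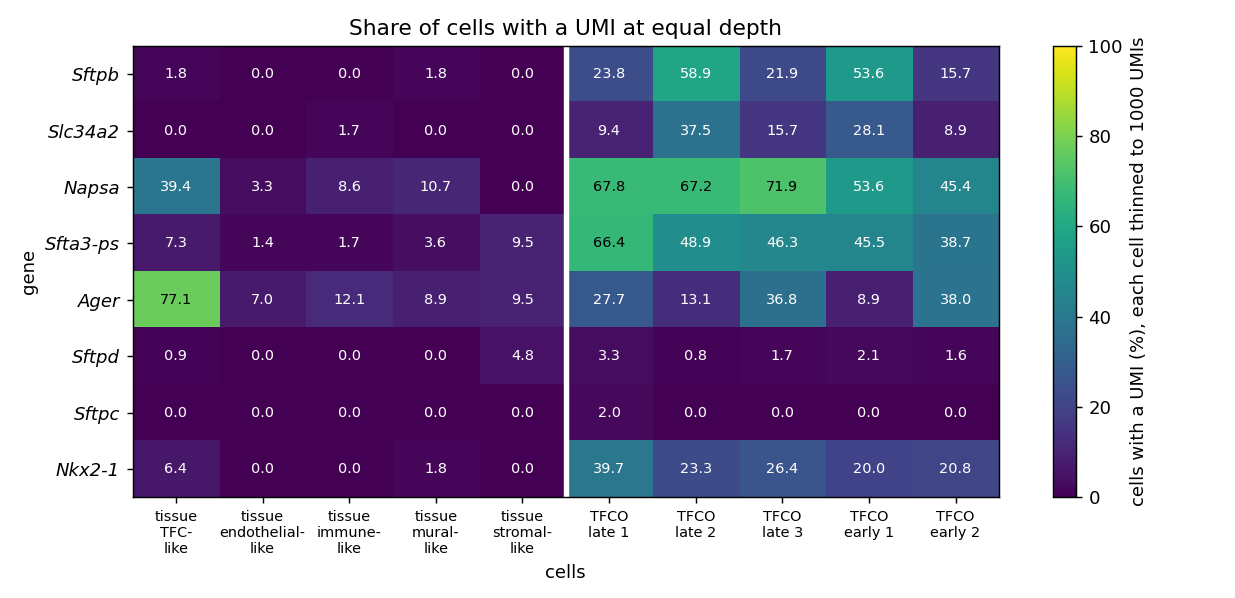
Share of cells with a UMI of each gene (rows, in percent, colour and number) after thinning every cell to 1000 UMIs, in 5 tissue cell classes (both samples pooled) and in each TFCO sample. Ager is seen in 77.1% of TFC-like tissue cells, and Sftpb and Slc34a2 in at most 1.83% of any tissue class.

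Markers of lung and airway cells were read in the same samples. Of 7 airway markers in the table, Trp63 had a mean of 0.5 or more in TFCOs (0.777 to 1.22, and 0.704 and 1.28 in TFC-like tissue cells), Krt5 was at 0 in all TFCO samples and Scgb1a1, the club cell secretoglobin, was at 0 in 4 of them and at 0.0250 in early sample 2. The whole airway list summed to 0.803 to 1.3 in TFCOs and to 1.03 and 2.10 in tissue. Of 21 further lung epithelial genes, 5 reached the filter. Those below it included Sftpa1 (surfactant protein A, at most 0.0564 in any sample), Lamp3 (lamellar bodies, at most 0.215) and Lyz1 (at most 0.00232). Also below it, Slc6a14, Cxcl15 and Cyp2f2 were higher in every TFCO sample than in TFC-like cells of both tissue samples. Cyp2f2 was at 0.128 to 0.390 against 0.0908 and 0.0167. Chil1 was lower in every TFCO sample, at 0.0284 to 0.0932 against 0.165 and 0.206. The 21 genes summed to 9.39 to 12.53 in TFCOs and to 7.35 and 8.52 in TFC-like tissue cells, with Abca3 and Ctsh the highest in every sample. The part of other cell types in the members' levels was not tested.

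Late sample 2 and early sample 1 differed from the other TFCO samples in more than these genes. They were the deepest, with medians of 12380.5 and 11059 UMIs per cell against 5704, 8954 and 5011, and held the most cycling cells, 34.2 and 43.8% against 7.17, 19.0 and 10.2%. Among cells of 5000 to 10000 UMIs, a window set after the data were seen, Sftpb was at 17.7 and 14.9 in these samples and at 3.91, 2.58 and 2.43 in the others. Slc34a2 was at 3.72 and 5.87 in that window against 0.975, 2.25 and 1.11, and Ager at 1.5 and 1.54 against 4.19, 4.98 and 4.32. Outside the cycling cells, Sftpb was at 15.9 and 13.8 against 3.66, 2.69 and 1.96. In the depth window the lowest Slc34a2 level of these samples lay nearer to the highest of the others than over all cells (3.72 against 2.25, and 4.5 against 2.05). Whether these samples share a line, an animal or a plate run is not given in the sources used here, and the part of depth and cycling in their levels was not tested.

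Late and early levels were among the values on which the genes were chosen, so their differences are given as a description. The series text speaks of 2 biological replicates per kind of sample, while 3 samples are labelled late. The 5 members that passed the filter are therefore given without a call, and Sftpc and Sftpd did not pass it. The comparison called 1 of 4301 genes (0.0233%), the ribosomal pseudogene Rpsa-ps10, which was named after its values were seen, and 892 genes had an unadjusted p under 0.05. Napsa was 1.70-fold higher in late samples on the log2(level + 1) scale (log2 0.76, SE 0.26, 95% interval 0.21 to 1.32). No early sample reached the lowest late one, but 42.5% of all genes tested likewise had no overlap between passages, in one direction or the other. Sfta3-ps differed by 0.29 (interval -0.24 to 0.82) and Ager by 0.20 (-0.70 to 1.10).

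For Sftpb the late minus early difference was 0.01 (interval -1.31 to 1.33) and for Slc34a2 it was -0.03 (-0.92 to 0.86). These intervals span more than a 2-fold change for Sftpb in either direction, so equal levels are not shown. A single sample set the direction: the Sftpb difference was 1.13 without early sample 1, -1.10 without early sample 2 and -0.63 without late sample 2. Leaving out an early sample leaves 1, which was assumed to vary like the other groups. For both genes the samples of each passage overlapped.

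Within a sample, Sftpb and Napsa rose and fell together from cell to cell. Over the cells of each sample, Pearson's r of log2(1 + UMIs per 10000) was 0.23, 0.63 and 0.35 in late samples and 0.54 and 0.16 in early samples. Of 4663 genes with a mean of 0.5 or more in TFCOs, Napsa had the highest mean r with Sftpb (0.38), and Sftpb the highest with Napsa. The correlation was highest in late sample 2 and early sample 1, where Sftpb was also highest. The cells of a sample share a library and differ in depth, and with each cell thinned to 3000 UMIs the mean r was 0.34 (0.13 to 0.55).

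The 25% of cells richest in Sftpb held 62.7% of it in late sample 2 and 62.0% in early sample 1, and 75.4 to 88.4% in the other samples. Cells with no Sftpb UMI were 3.89 and 6.81% in those 2 samples. They were 40.1, 43.4 and 57.8% in late samples 1 and 3 and early sample 2. Cells were not thinned here, so these shares depend on level and depth and do not compare the samples. In late sample 2 the 90 cells richest in Sftpb were at 25.3 for Napsa against 10.3 in the rest. In early sample 1 the Sftpb-rich cells were at 18.1 against 8.85. Napsa was also higher in the Sftpb-rich cells of the other 3 samples, at 23.2 against 15.9, 26.6 against 17.2 and 10.8 against 7.34. The Sftpb-rich cells were not deeper in late sample 2 (median 11671.5 UMIs against 12567) or early sample 1 (10773 against 11686). Slc34a2 had no such common direction. In the Sftpb-rich cells it was at 4.5 against 5.10 in late sample 2 and at 3.86 against 4.72 in early sample 1, and at 0.794 against 1.16 in early sample 2. It was higher in those cells in late sample 1 (1.71 against 0.766) and late sample 3 (2.31 against 1.96).

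**Figure D3:**
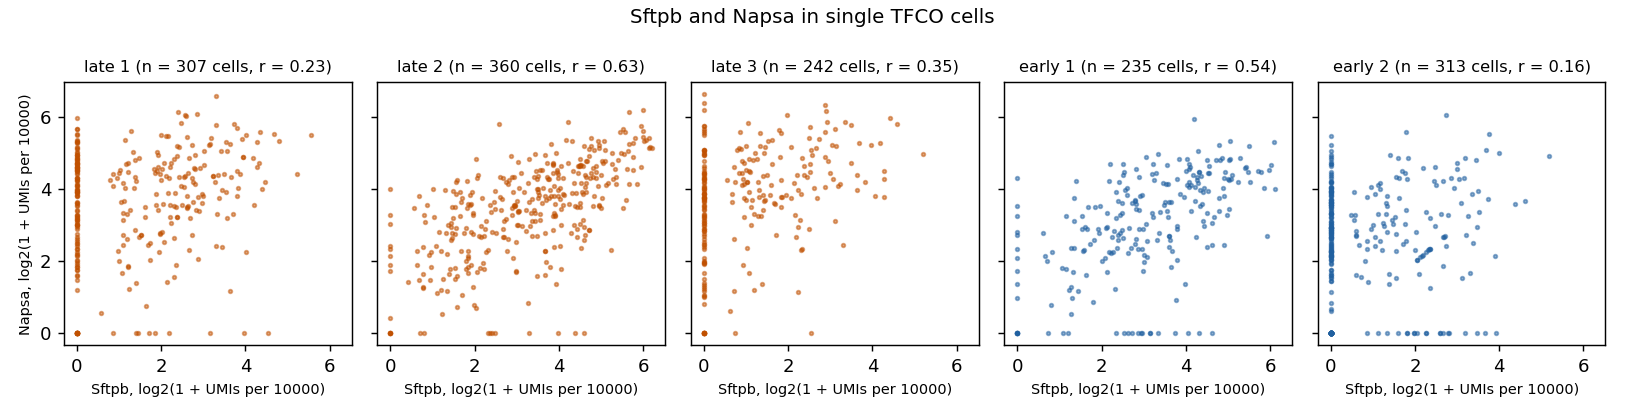
Napsa (vertical) against Sftpb (horizontal) in single cells of each TFCO sample, both as log2(1 + UMIs per 10000), with 1 point per cell and Pearson's r over the cells. Cells at 0 had no UMI of that gene. The cloud rises most clearly in late sample 2 (r = 0.63) and early sample 1 (r = 0.54).

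Napsa was also correlated with Tg (mean r 0.34, 0.28 to 0.48) and with the lysosomal proteases Ctsl (0.34) and Ctsb (0.32). Across TFC-like tissue cells, r was 0.43 and 0.32 for Napsa with Tg, and 0.62 and 0.51 for Ager with Tg (52 and 57 cells). Sfta3-ps was most correlated with Adgrl3 (0.32) and with Malat1, a nuclear noncoding RNA (0.31). Mean r of Slc34a2 and Sftpd with the other members except Sftpc was between -0.05 and 0.07. Sftpd counts were sparse. For Slc34a2 the mean hides samples that differ. With Napsa its r was 0.19, -0.05 and 0.01 in late samples and 0.21 and -0.004 in early samples. No common relation can be read from these means.

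The correlation of Nkx2-1 with the members from cell to cell was low, and it was highest for Sfta3-ps. Of all ranked genes, Sfta3-ps had the highest mean r with Nkx2-1 (0.20, from -0.01 in early sample 1 to 0.29), and 0.11 after thinning. The mean r with Nkx2-1 was 0.11 for Napsa, 0.06 for Slc34a2, 0.05 for Sftpb, 0.01 for Ager and -0.01 for Sftpd. After thinning, that of Napsa was 0.06 (-0.06 to 0.10), near that of Slc34a2 (0.04). Because Nkx2-1 is low, a cell without an Nkx2-1 UMI need not lack the transcript, and a low r does not show that no relation exists.

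TFCO cells were also split by an Nkx2-1 UMI after thinning each cell to 3000 UMIs, which left out 67, 12 and 21 late and 30 and 97 early cells. Cells with an Nkx2-1 UMI were 69.6, 51.4 and 58.4% in late and 41.5 and 47.2% in early samples. Sfta3-ps was at 14.1, 8.04 and 8.09 in late cells with an Nkx2-1 UMI against 9.27, 7.53 and 6.30 without, at 7.22 against 7.92 in early sample 1, and at 8.79 against 7.51 in early sample 2. It was thus higher with Nkx2-1 in 4 of 5 samples, as were Sftpd (all but early sample 2) and Slc34a2 (all but late sample 3). Of 4672 genes with a mean of 0.5 or more, 21% were higher in 4 or 5 samples. Sftpd lay below that mean. It had 22, 15 and 16 UMIs with Nkx2-1 against 3, 6 and 11 without in late samples. In early samples it had 7 and 5 against 7 and 10. Napsa was higher with Nkx2-1 in late samples 1 and 3 and lower in the others. Sftpb was lower with Nkx2-1 in 4 of 5 samples. It was at 3.99, 14.2 and 2.35 in late samples against 4.16, 15.1 and 2.68, and at 11.8 against 12.7 in early sample 1. Early sample 2 was at 2.16 against 1.84. The share of all genes lower in 4 of 5 samples was not computed, so this cannot be called particular to Sftpb. No member was higher with Nkx2-1 in every sample, which 3.92% of the genes with a mean of 0.5 or more were.

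**Figure D4:**
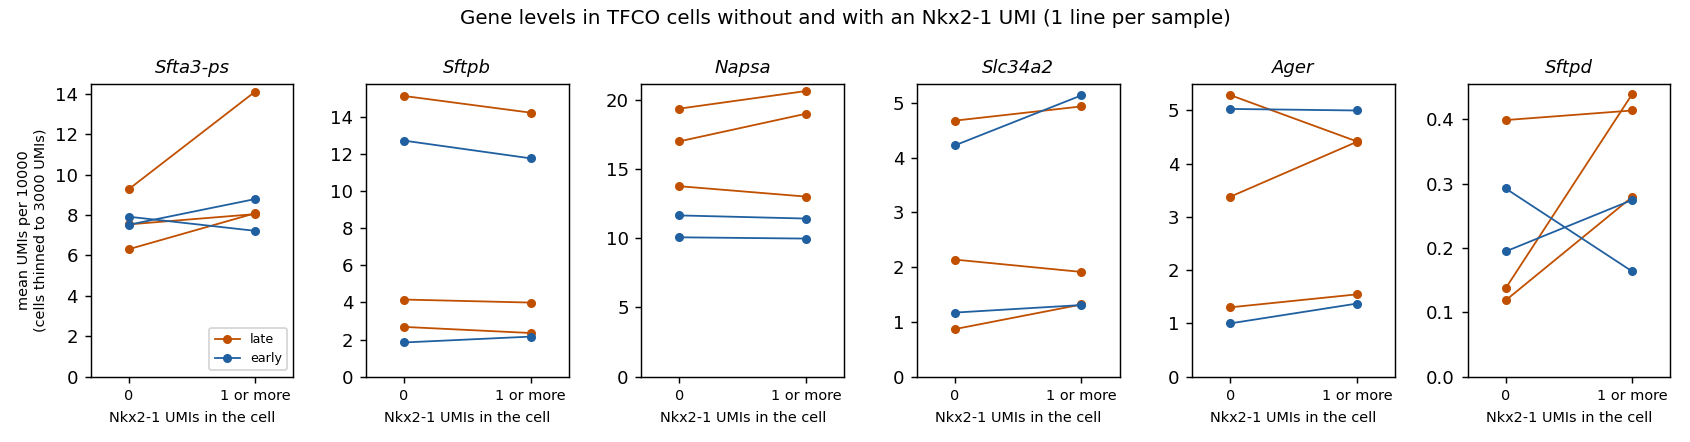
Level of 6 genes (vertical axis, mean UMIs per 10000 after thinning each cell to 3000 UMIs, own scale per panel) in TFCO cells with 0 and with 1 or more Nkx2-1 UMIs. Each line joins both values of a sample, orange for late and blue for early, and no gene rises in all 5 samples.

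Cycling and other TFCO cells were compared next, as the cell cycle was not used to choose the genes. Cells with a UMI of at least 4 of 16 cycling markers numbered 22, 123 and 46 in late and 103 and 32 in early samples. As shares of a cell's UMIs, Ager and Sfta3-ps fell in cycling cells by limma, as did Nkx2-1. Tg, which is not a member, was also lower in cycling cells in all 5 samples. Its log2 differences were -0.76, -0.27 and -0.96 in late samples and -0.40 and -0.74 in early samples. It was called under 12 of 13 other settings, so a fall in cycling cells is not particular to the members. Of 6 members that passed the filter of 0.1 per 10000, 4 were lower in cycling cells in all 5 samples, against 5.77% of 12142 genes tested, and the 2 that were called compare with 0.478% of genes called lower. Those shares cover genes down to 0.1 per 10000, well below the levels of Ager and Sfta3-ps. Shares among genes of like level were not computed.

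Ager was at 2.76, 1.03 and 4.12 per 10000 in cycling cells of late samples against 4.33, 1.97 and 5.14 in their other cells, and at 1.17 and 3.25 against 1.35 and 5.53 in early samples. It fell by 0.41 on the log2 scale (SE 0.09, limma adjusted p = 0.0201). Sfta3-ps was at 8.17, 6.62 and 5.54 against 13.5, 8.29 and 8.10 in late samples, and at 7.13 and 5.80 against 8.53 and 6.94 in early samples, and it fell by 0.37 (SE 0.09, limma adjusted p = 0.0282). Nkx2-1 fell by 0.35 (SE 0.08, limma adjusted p = 0.0325), also in 5 of 5 samples. Napsa (log2 -0.28, SE 0.08, limma adjusted p = 0.0786) and Sftpd (log2 -0.17, SE 0.05, limma adjusted p = 0.129) were lower in 5 of 5 samples without passing the threshold. Sftpb did not pass it either (log2 -0.18, interval -0.41 to 0.05, limma adjusted p = 0.472), and Slc34a2 was at 0.03 (-0.15 to 0.22, limma adjusted p = 0.905).

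Cycling cells were deeper, with medians of 9283 to 18578 UMIs against 4505 to 10814 in the other cells, and a level is a share of a cell's UMIs. Per cell, Ager was at 2.82, 1.46 and 5.37 UMIs in cycling cells of late samples against 2.75, 2.02 and 4.19 in their other cells, and at 2.01 and 4.88 against 1.34 and 3.50 in early samples. Its UMIs per cell were thus lower in cycling cells in 1 of 5 samples, late sample 2. Those of Sfta3-ps were higher in cycling cells in all samples but late sample 3 (6.65 against 7.23), and those of Nkx2-1 were higher in all 5 (3.07 to 4.18 against 2.02 to 3.24). The calls did not hold under every setting: all 3 were lost when 2 of 16 markers sufficed and when every gene with a UMI was tested. Leaving out late sample 1 or late sample 2 also ended all 3 calls, and leaving out late sample 3 or early sample 1 ended those of Sfta3-ps and Nkx2-1, as did having no minimum of UMIs per cell. In a test of late against early, no member's cycling difference passed the threshold (limma adjusted p of 0.826 or more).

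**Figure D5:**
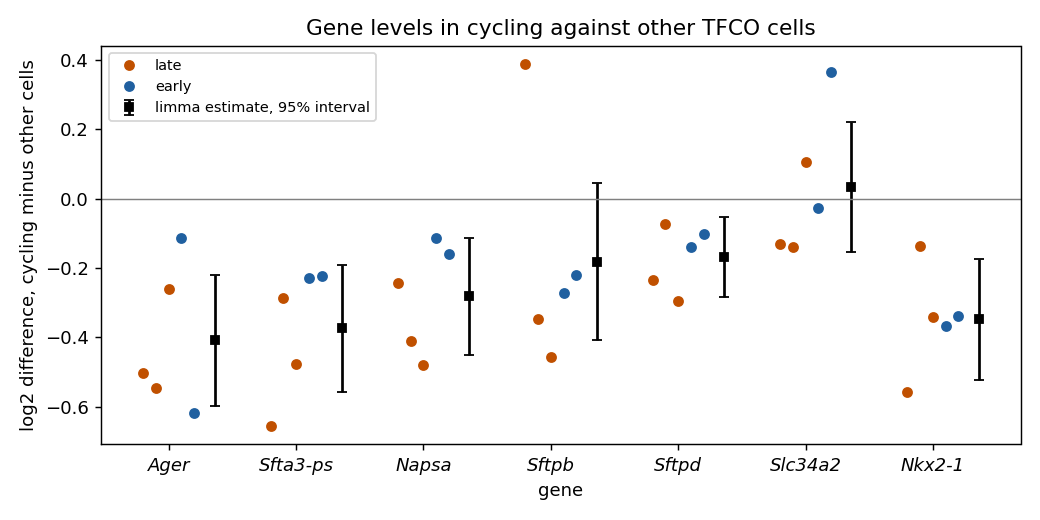
Log2 difference of log2(level + 1) between cycling and other TFCO cells (vertical axis) for 6 members and Nkx2-1. Coloured points are samples (orange late, blue early) and black squares are limma estimates with 95% intervals. Ager, Sfta3-ps, Napsa, Sftpd and Nkx2-1 lie below 0 in all 5 samples.

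Lists of related genes, none of them members, were tested in organoids against tissue. The lists were drawn up with earlier results of these data known, so their calls are a description and no independent support. In this fit 1042 of 4301 genes rose (24.2%) and 299 fell (6.95%), and with each sample centred on its median gene 445 rose and 474 fell. Among NKX2-1 partners and lung factors, 8 of 13 genes in the table were tested and 2 rose, with a median of 0.60 against 0.22 for all genes. These were Sox9, a factor of the embryonic lung tip (1.73 and 1.83 in tissue, 6.67 to 11.2 in TFCOs, log2 1.77, SE 0.32, limma adjusted p = 0.00318), and Nfib, a nuclear factor I gene needed for lung maturation (1.71 and 2.44 against 4.62 to 7.65, log2 1.16, SE 0.32, limma adjusted p = 0.0189). Foxa1 and Foxa2, partners of NKX2-1 in the lung, were at 0.145 or less in every sample and were not tested. Foxa2 was at 0 in both tissue samples and at 0.0541 to 0.124 in TFCOs. Cebpa, Cebpd and Gata6 were not tested either. Cebpa was at 0.0303 and 0.0602 in tissue against 0.292 to 0.658 in TFCOs, and Cebpd at 0 and 0.0744 against 0.458 to 0.785. For Foxa1 and Gata6 the TFCO and tissue samples overlapped.

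Of the lung epithelial genes outside the members, 5 were tested and 1 rose. This was Etv5, an FGF-responsive factor of alveolar type II cells (at most 0.00842 in tissue, 0.865 to 1.85 in TFCOs, log2 1.14, SE 0.22, limma adjusted p = 0.00354). It passed the filter only through the TFCO samples, which fixes the direction of its call. The others, which did not pass, included Abca3, the lipid transporter of lamellar bodies (3.57 and 3.74 against 2.47 to 3.01), and Ctsh, a cathepsin that processes surfactant protein precursors (2.03 and 1.78 against 2.29 to 4.80). Of the thyroid-type targets of NKX2-1, 5 of 10 were tested, 2 rose and 1 fell, with a median of -0.15. Tshr, the TSH receptor gene, rose (log2 1.33, SE 0.37, limma adjusted p = 0.0190), Pax8 rose (log2 0.87, SE 0.28, limma adjusted p = 0.0317) and Tg fell by 3.56 (SE 0.55, limma adjusted p = 0.00141).

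Of 9 ligands of RAGE, 4 were tested. App, the amyloid precursor protein gene, rose (7.84 and 10.4 against 17.6 to 34.8, limma adjusted p = 0.0339), and S100a1, which encodes a calcium-binding protein, fell (2.66 in both tissue samples against 0.544 to 1.38, limma adjusted p = 0.00808). Neither of the tested phosphate transporters (Slc20a2 and Xpr1) nor the 1 tested surfactant-processing protease (Ctsh) passed the threshold. Slc34a1 and Slc34a3, the kidney relatives of Slc34a2, were at 0.0240 or less in every sample. Among 16 cycling markers Pcna alone was tested, and it rose (log2 0.87, SE 0.19, limma adjusted p = 0.00703). It was at 0.138 and 0.120 in tissue and, like Etv5, was let in by its TFCO levels alone.

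These list calls rest partly on how cells are averaged. With UMIs summed over cells, 8 of the 9 named genes lost their calls, and with the 2 deepest cells of tissue sample 2 left out of those sums, App alone did. The call of App was also lost without tissue sample 2, early sample 1 or early sample 2, that of Pax8 without tissue sample 1 or early sample 1, and both after centring. The finer clustering ended the calls of App, Nfib, S100a1 (log2 -0.31, limma adjusted p = 0.449) and Tshr, and a minimum of 2000 UMIs per cell those of App, Pax8 and Tshr. With no filter on low means 6 of the 9 were lost, and Etv5, Sox9 and Tg kept theirs. An added 0.1 in place of 1 ended that of App.

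The genes most like each member were sought over 14 means, those of the 5 TFCO samples and of the named tissue classes with at least 10 cells, as a description over means that share samples. Sftpb was most like Dcpp3 (Pearson's r 0.99 over 14 means), Prlr and Mest (both 0.97), and Slc34a2 was most like Dcpp3 (0.99), Hs3st4 (0.98) and Gm49980 (0.97). Dcpp3 is a member of a family of near-identical genes, so its counts are uncertain. It was at 0.000653 or less in TFC-like tissue cells and at 2.83 to 39.2 in TFCO samples. Napsa was most like Lsr (0.98), Pla2g7 and Epcam (both 0.97), and Ager was most like Tg (0.97), Tspan1 (0.96) and Gjb1 (0.95). Sfta3-ps was most like Clmn (0.99), Serinc5 (0.98) and Atp11a (0.98), and Nkx2-1 like Mt1, Dsg2 and Cybrd1 (all 0.98).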

How the data were processed

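Single cells were sorted into 384-well plates and sequenced by SORT-seq, which uses CEL-seq2 chemistry with UMIs. The submitters' processing notes name Trim Galore (0.4.3), STAR (2.5.3a), Seurat and the build GRCm38 (mm10). The values deposited by the authors are the natural log of 1 + UMIs per 10000 of a cell. UMIs were recovered by undoing the log and dividing each cell by its smallest value above 0 (100% whole within 0.01). Tissue cells were clustered with scanpy (1.11.5, 2000 variable genes, 30 components, 15 neighbours, Leiden resolution 1) and named from marker lists. No doublet caller was run. Organoids were compared with TFC-like tissue cells, and late with early samples, in 1 limma (3.58.1) fit with trended variance on log2(mean + 1), with 1 weight for tissue and 1 for TFCO samples and a filter of 0.5. Cycling cells were compared within samples, with a filter of 0.1. A test was called at a Benjamini-Hochberg adjusted p under 0.05. Shares have exact (Clopper-Pearson) 95% intervals, and a share of 0 allows up to 3 counts. Both cover counting error only. Scripts were tested on simulated data. The members and gene lists were chosen with earlier results of these data known. Members therefore have no p-value for tissue or passage, and the p-values of list genes are no independent support. Genes named were all members and Nkx2-1, up to 4 called genes per direction of each list, and the 3 genes of highest correlation with each member over sample and class means. Other genes named (correlated within samples, or below the filter) were picked after their values were seen. The labels' passage stage gave the groups.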

Additional observations from a re-analysis of the deposited data

How the results depend on the processing

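The 5 members were chosen partly on organoid against tissue levels, and Sftpb and Slc34a2 passed the filter only through the TFCO samples. Unchanged directions under all 18 alternatives tried are therefore no support. The alternatives show how far the sizes moved. Log2 differences, organoids minus tissue, ran from 1.81 to 4.12 for Sftpb, 1.33 to 4.05 for Slc34a2 and 0.70 to 1.06 for Napsa. For Sfta3-ps they ran from 1.48 to 2.93 and for Ager from -3.16 to -2.34. In this comparison 1341 genes were called, but 163 with UMIs summed over cells and 709 with a minimum of 2000 UMIs per cell. Summed without the 2 deepest TFC-like cells of tissue sample 2, an alternative chosen after seeing the data, the count was 1220. The count was 976 to 1843 without any 1 sample. A fit with 1 tissue sample weighted all samples alike and took that sample to vary as the others do. Late against early gave 1 called gene, and 1 to 347 without any 1 sample, the 347 (33 higher in late) without early sample 1, which leaves a lone early sample. Calls of members are not counted here, since late and early levels were among the values that chose them. Cycling against other cells gave 314 called genes, but 55 with every gene tested, 88 with cycling set from 2 markers, 644 with no minimum per cell and 175 to 329 without any 1 sample. Over 13 alternatives the call held under 9 for Ager, 6 for Sfta3-ps and 6 for Nkx2-1, and all 3 stayed lower throughout. The cause of these changes was not tested. Of 152 levels per group, 13 moved by more than 1 SD, among them Sfta3-ps in tissue, at 2.85 with summed UMIs against 1.02. No paired analysis was possible because the numbers in the labels only count samples and tie no sample of a group to one of another group. The TFC-like cells, with few UMIs each, limit what can be said of low genes in tissue.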
